A study of Mus musculus with 37 samples.

Results

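The glycolysis and hypoxia genes described here were 10 genes, taken by symbol from a count table of 24421 mouse genes: Slc2a1, Hk2, Pfkp, Pgk1, Eno1, Ldha, Slc16a3, Car9, Egln3 and Hif1a. All 10 were found, and all 10 passed the low-count filter of every fit. The libraries came from bulk RNA of wild-type (WT) female BALB/c mice. One set of mice drank N-butyl-N-(4-hydroxybutyl) nitrosamine (BBN), a carcinogen of the urothelium, for 18 weeks by the design text, and the controls drank tap water. The groups were the cancerous ureter (UT, 10 libraries from 9 mice in the fits), the opposite ureter of BBN-treated mice without cancer under the microscope (UN, 7 libraries from 7 mice), the ureter of tap-water mice (U, 6 libraries, the right and left ureters of 3 mice), the bladder of BBN-treated mice (BBN bladder, 9 libraries in the fits) and the bladder of tap-water mice (untreated bladder, 3 libraries). UT, UN and BBN bladder libraries largely share their mice, so UN is not tissue from an unexposed animal. UT 9 (UT of mouse 9) was not among the UT libraries that the study drew, and the bladder of mouse 6 carries the tumor code in its library name; both were left out of the fits and are given apart. No age was given in the labels.

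Glycolysis splits glucose to pyruvate in the cytosol. Slc2a1 brings glucose into the cell, Hk2 traps it as glucose 6-phosphate, Pfkp commits it to glycolysis, Pgk1 and Eno1 act in the later steps, Ldha turns pyruvate into lactate, and Slc16a3 exports the lactate with a proton. When oxygen is low, the transcription factor subunit HIF-1α, encoded by Hif1a, escapes hydroxylation and degradation and raises the transcription of many of these genes. Egln3 encodes one of the prolyl hydroxylases that mark HIF-1α for degradation, and Car9 encodes a membrane carbonic anhydrase that is widely used as a marker of hypoxia in tumors. HIF-1α is regulated mainly at the protein level, which RNA counts do not show.

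On GRCm38, Slc2a1 lies at chr4:119108711-119137983, Car9 at chr4:43506966-43513729 and Eno1 at chr4:150236721-150248879, all on the plus strand. Hk2 lies at chr6:82725025-82774454 and Pfkp at chr13:6579768-6648777, both on the minus strand. Ldha lies at chr7:46841475-46855627, Slc16a3 at chr11:120948480-120960868, Hif1a at chr12:73901375-73947530 and Pgk1 at chrX:106187100-106203699 on the plus strand, and Egln3 at chr12:54178981-54203860 on the minus strand.

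The DNA core bound by HIF is ACGTG or GCGTG, which reads CACGT or CACGC on the other strand. RefSeq promoter windows (GRCm38.p6, 250 bases before to 50 bases after the start site) were matched for all 10 genes, in 13 windows, and each of the 13 windows held at least 1 of these 4 words. Over all 32851 promoter windows, 43.8% held at least 1 of them and 19.6% held ACGTG on either strand. The words overlap where they form CACGTG. The members are textbook HIF targets or their regulator, so the share is a description of known genes. The windows below belong to the 5 genes that rose in UT and to the 2 that rose in the BBN bladder, with every match in capitals. They lie at chr4:119108495-119108794 (Slc2a1), chr11:120948817-120949116 (Slc16a3), chr4:43506776-43507075 (Car9), chr12:54203825-54204124 (Egln3, minus strand), chr12:73907617-73907916 (Hif1a), chr6:82774405-82774704 (Hk2, minus strand) and chrX:106186850-106187149 (Pgk1), and each is written 5′ to 3′ on the strand of its gene.
Slc2a1: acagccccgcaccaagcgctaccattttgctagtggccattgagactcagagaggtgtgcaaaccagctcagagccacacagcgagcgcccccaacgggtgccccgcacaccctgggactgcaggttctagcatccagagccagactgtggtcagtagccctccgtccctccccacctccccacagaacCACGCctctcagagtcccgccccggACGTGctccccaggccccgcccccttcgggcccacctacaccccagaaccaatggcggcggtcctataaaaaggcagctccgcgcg
Slc16a3: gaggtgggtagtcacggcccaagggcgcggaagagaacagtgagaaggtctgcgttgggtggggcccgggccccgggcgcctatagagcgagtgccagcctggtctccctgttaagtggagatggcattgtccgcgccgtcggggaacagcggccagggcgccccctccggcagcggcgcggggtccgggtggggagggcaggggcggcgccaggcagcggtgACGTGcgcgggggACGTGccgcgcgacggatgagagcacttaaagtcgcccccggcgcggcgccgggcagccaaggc
Car9: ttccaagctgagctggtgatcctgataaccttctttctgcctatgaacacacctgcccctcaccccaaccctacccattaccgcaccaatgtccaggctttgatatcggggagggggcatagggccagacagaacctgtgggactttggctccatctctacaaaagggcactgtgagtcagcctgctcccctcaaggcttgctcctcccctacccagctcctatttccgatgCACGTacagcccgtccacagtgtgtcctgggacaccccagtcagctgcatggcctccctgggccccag
Egln3: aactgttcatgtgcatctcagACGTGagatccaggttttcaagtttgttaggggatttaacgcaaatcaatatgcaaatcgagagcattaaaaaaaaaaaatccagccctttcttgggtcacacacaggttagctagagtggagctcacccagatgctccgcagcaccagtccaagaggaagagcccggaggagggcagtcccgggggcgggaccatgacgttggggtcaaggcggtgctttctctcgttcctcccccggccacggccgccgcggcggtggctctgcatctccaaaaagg
Hif1a: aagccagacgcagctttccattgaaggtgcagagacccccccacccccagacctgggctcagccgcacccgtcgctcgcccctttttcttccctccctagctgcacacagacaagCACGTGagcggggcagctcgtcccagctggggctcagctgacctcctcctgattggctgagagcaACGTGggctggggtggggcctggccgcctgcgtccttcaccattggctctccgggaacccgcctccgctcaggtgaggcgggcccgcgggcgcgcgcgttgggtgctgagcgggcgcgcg
Hk2: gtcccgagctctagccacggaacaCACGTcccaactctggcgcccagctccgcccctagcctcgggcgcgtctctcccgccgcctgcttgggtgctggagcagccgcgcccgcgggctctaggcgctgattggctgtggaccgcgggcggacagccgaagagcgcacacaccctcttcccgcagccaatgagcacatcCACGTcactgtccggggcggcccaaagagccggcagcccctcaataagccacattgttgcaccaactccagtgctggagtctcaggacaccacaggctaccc
Pgk1: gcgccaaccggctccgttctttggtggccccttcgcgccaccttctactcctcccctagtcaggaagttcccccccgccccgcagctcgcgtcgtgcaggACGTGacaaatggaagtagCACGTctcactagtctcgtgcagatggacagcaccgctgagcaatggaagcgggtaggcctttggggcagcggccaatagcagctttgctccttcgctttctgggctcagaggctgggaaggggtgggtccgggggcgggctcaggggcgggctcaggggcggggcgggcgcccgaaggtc

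Slc16a3 carried ACGTG at positions -27 and -14 from its start site, on the plus strand of the gene. Car9 carried a single match, CACGT, at position -18. Slc2a1 had ACGTG at -36 and CACGC at -61, and Egln3 had its only match, ACGTG, at -229. Hif1a, which is not itself a classical target, held ACGTG at -134 and at -70. Hk2 held CACGT at -226 and -52, and Pgk1 held ACGTG at -150 and CACGT at -131. No binding was measured in these libraries.

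The totals of the fitted libraries ran from 3557553 to 18793434 counts, with group medians from 12451968 to 15525078. The BBN bladders of mice 1, 3 and 4 (3557553 to 7820396 counts) and UN 6 (4674970 counts) were the shallow ones, and their 10 most abundant genes took 21.5% to 35.5% of the counts, against 5.07% to 17.5% in the other fitted libraries. These 4 libraries also had the lowest RNA integrity of the 37, and they are called shallow below although depth, RNA integrity and the share of their top genes move together in them. Levels are given as CPM, the count of a gene scaled to its library's total. A gene is said to rise or fall where edgeR's quasi-likelihood test gave a Benjamini-Hochberg adjusted p under 0.1, over all genes tested, with at least a 2-fold change, which are the thresholds of the study. P-values measure the spread between these libraries, and the 6 U libraries come from only 3 mice. In bulk tissue, fewer cells of a type and less RNA per cell cannot be told apart.

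The make-up of the tissue differed between the groups. The summed level of 9 adipocyte markers ranged from 25186 to 32870 CPM in U, from 5061 to 27983 CPM in UN and from 42.9 to 11625 CPM in UT, and 9 of 9 fell in UT against U. The summed level of 10 urothelial markers ranged from 1566 to 3101 CPM in U, from 2475 to 7442 CPM in UT and from 20609 to 21494 CPM in the untreated bladder, and UN 2 had only 32.1 CPM. The summed level of 10 kidney tubule markers was 2619 CPM in UT 4 and at most 11.9 CPM in the other fitted UT libraries. Over all genes tested in UT against U, 18.6% rose and 14.4% fell. Of 10 proliferation genes, 10 rose, as did 4 of 8 macrophage, 5 of 6 neutrophil, 6 of 7 T cell and 5 of 5 kidney tubule markers tested, while 6 of 8 smooth muscle and 3 of 8 endothelial markers fell. Of 10 urothelial markers 2 rose and 3 fell, of 5 skeletal muscle markers 1 rose and 2 fell, and 6 erythroid markers had a median log2 fold change of -0.54. The 2 of 10 urothelial and 1 of 5 skeletal muscle markers that rose lie near the share of all genes. The part of these shifts in the results below was not tested, except where values without a library are given.

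**Figure D1:**
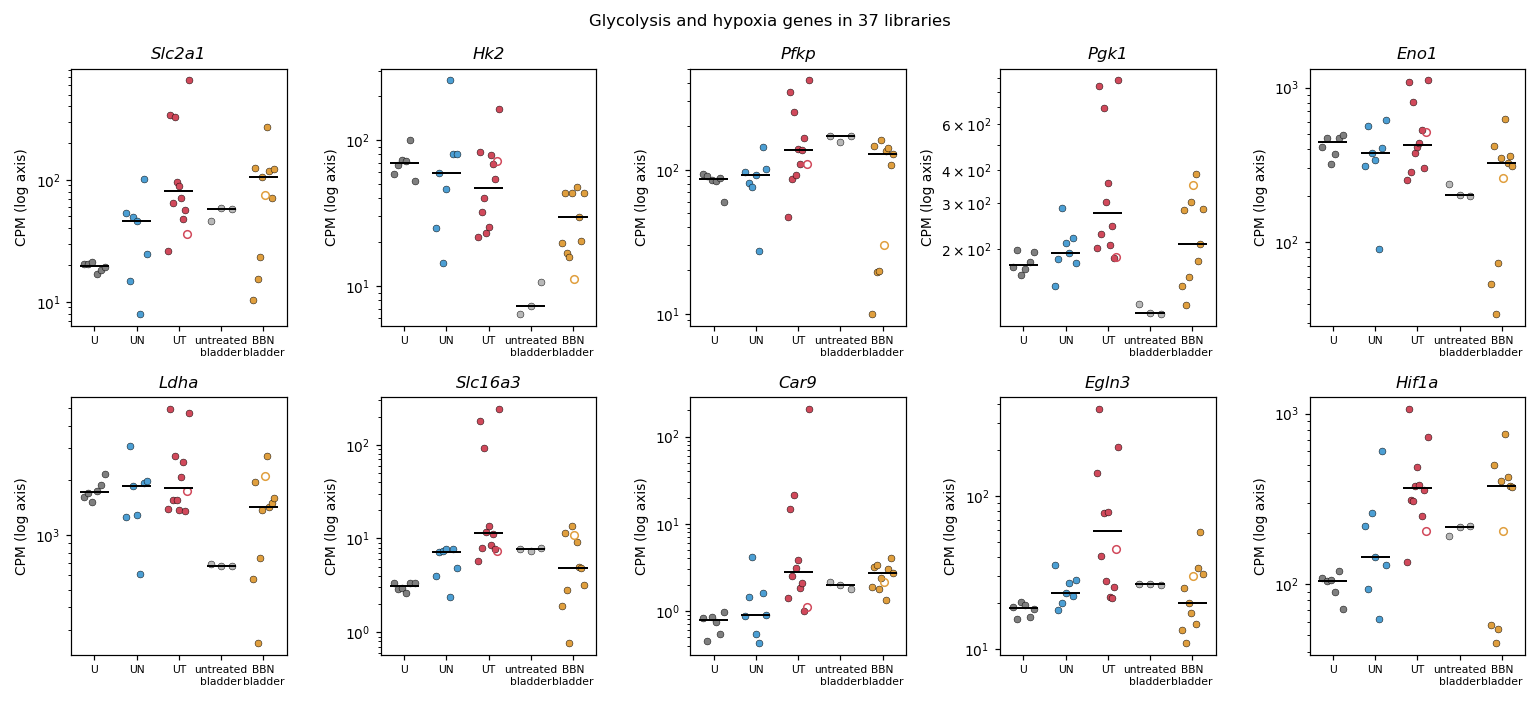
Levels of the 10 genes in all 37 libraries as CPM on a log axis, 1 panel per gene and 1 column per group; filled points are fitted libraries, open points are UT 9 and the bladder of mouse 6, and bars are group medians. In the panels of Slc2a1, Slc16a3, Car9, Egln3 and Hif1a every fitted UT point lies above every U point, and for Slc16a3 the points of UT 2, UT 4 and UT 10 (91.7 to 240 CPM) stand far above the other UT points (5.69 to 13.6 CPM).

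The first comparison asked what the cancerous ureter (UT) expressed against the untreated ureter (U). Of the 10 genes, 5 rose and 0 fell: the glucose importer Slc2a1, the lactate exporter Slc16a3, the carbonic anhydrase Car9, the prolyl hydroxylase Egln3 and the HIF subunit Hif1a. The 5 enzymes between glucose uptake and lactate export, Hk2, Pfkp, Pgk1, Eno1 and Ldha, did not pass. Over all 15615 genes tested, 18.6% rose and 14.4% fell. The median log2 fold change was 1.36 over the 10 genes and 0.08 over all genes. The 10 UT libraries lay wholly above the 6 U libraries for these same 5 genes, as they did for 17.2% of 18897 genes, and wholly below for 5.70%.

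Slc2a1, the main glucose importer of many epithelia and tumors, was at 17.0 to 21.2 CPM in the 6 U libraries (median 19.7) and at 26.2 to 654 CPM in the 10 UT libraries (median 80.2). The groups did not overlap. The fitted log2 fold change was 2.87 ± 0.62 (SE; edgeR adjusted p = 0.00081). UT 9 held 35.7 CPM, also above every U library.

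Slc16a3, the exporter that glycolytic cells use for lactate, was at 2.6 to 3.39 CPM in U (median 3.12) and at 5.69 to 240 CPM in UT (median 11.4). Every UT library was above every U library, and UT 9 held 7.27 CPM. The log2 fold change was 3.92 ± 0.87 (SE; edgeR adjusted p = 0.00095). The size was carried by UT 2 (180 CPM), UT 4 (91.7 CPM) and UT 10 (240 CPM), while the other fitted UT libraries lay between 5.69 and 13.6 CPM.

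Car9, the hypoxia marker, was at 0.446 to 0.976 CPM in U (median 0.789, 7 to 16 counts per library) and at 0.987 to 207 CPM in UT (median 2.81), so the highest U and the lowest UT library almost touched. The log2 fold change was 4.79 ± 1.20 (SE; edgeR adjusted p = 0.0026). UT 10 alone held 207 CPM, and the next highest were UT 4 with 21.2 CPM and UT 2 with 14.8 CPM. Without UT 10 the log2 fold change of Car9 was 2.66 and the call was kept. With RNA integrity as a covariate it was 1.81 and the call was lost (adjusted p = 0.37).

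Egln3, the oxygen sensor whose own transcript is a HIF target, was at 15.7 to 20.2 CPM in U (median 18.6) and at 21.5 to 372 CPM in UT (median 59.2). The groups did not overlap. The log2 fold change was 2.21 ± 0.57 (SE; edgeR adjusted p = 0.0033). Its order among the UT libraries differed from that of Slc16a3: UT 1, the lowest for Slc16a3 at 5.69 CPM, was the third highest for Egln3 at 142 CPM.

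Hif1a was at 71.5 to 119 CPM in U (median 104) and at 135 to 1061 CPM in UT (median 366), again without overlap. The log2 fold change was 1.83 ± 0.39 (SE; edgeR adjusted p = 0.00066), the smallest SE among the 5 genes that rose. Hif1a was the only 1 of these 5 for which the 3 highest UT libraries included UT 5L, the left ureter of mouse 5 (482 CPM), beside UT 2 (1061 CPM) and UT 10 (732 CPM).

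Of the enzymes, Pgk1, which makes the first ATP of glycolysis, was at 158 to 197 CPM in U and 184 to 884 CPM in UT. Its log2 fold change of 0.90 ± 0.35 (SE; edgeR adjusted p = 0.040) stayed under 2-fold. Pfkp, the platelet-type phosphofructokinase, was at 59.2 to 93.9 CPM in U and 47.03 to 418 CPM in UT, a log2 fold change of 0.79 ± 0.35 (SE; edgeR adjusted p = 0.069). Both groups of libraries overlapped for these genes.

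Ldha, the lactate-forming dehydrogenase subunit, was at 1514 to 2172 CPM in U (median 1721) and 1351 to 4939 CPM in UT (median 1821). Its log2 fold change was 0.12 ± 0.35 (SE; edgeR adjusted p = 0.79). Eno1, an enolase, was at 319 to 495 CPM in U (median 443) and 254 to 1114 CPM in UT (median 423), with a log2 fold change of 0.07 ± 0.35 (SE; edgeR adjusted p = 0.89). The medians of both genes lay close together while the UT range was several times wider. Reads of Eno1 can be split with the near-identical Eno1b, and both symbols had nearly the same profile over the 35 fitted libraries (Pearson r = 0.9995), so neither value can be read as that of a single locus.

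Hk2, the inducible hexokinase, was at 52.4 to 101 CPM in U (median 69.4) and at 21.8 to 163 CPM in UT (median 47.2), and the log2 fold change of -0.57 ± 0.54 (SE; edgeR adjusted p = 0.40) did not pass. The group median of the adipocyte marker sum was highest in U, and its part in the level of Hk2 was not tested.

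The UT libraries differed more among themselves than the U libraries did. UT 2, UT 4 and UT 10 were the 3 highest of the 10 UT libraries for 7 of the 10 genes: Slc2a1, Pfkp, Pgk1, Eno1, Ldha, Slc16a3 and Car9. For Slc2a1 these libraries held 338, 324 and 654 CPM, and the fourth highest library held 95.2 CPM. For Pgk1 they held 841, 692 and 884 CPM, and the fourth held 358 CPM. For Ldha the gap was small: UT 4 held 2722 CPM and the fourth highest library 2511 CPM.

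The same 3 libraries also stood apart in summed levels of other genes. Their summed level of 24 glycolytic enzymes was 14008 to 17038 CPM, against 5343 to 7354 CPM in the other UT libraries, although this list holds 4 of the 10 genes. Their 34 hypoxia targets outside glycolysis, Car9 among them, summed to 4589 to 6894 CPM, against 2254 to 3991 CPM. Their adipocyte markers summed to 42.9 to 453 CPM, against 568.3 to 11625 CPM, and their proliferation genes to 581 to 1148 CPM, against 192 to 442 CPM. Their T cell markers, 6.81 to 31.5 CPM, lay below the 42.9 to 355 CPM of the others. These libraries were picked by their levels, so the values are a description without a test, and UT 4 also carried the kidney tubule markers.

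The second comparison asked what the ureter without cancer (UN) expressed against U. None of the 10 genes rose or fell by edgeR; 1 of them, Hif1a, had an unadjusted p under 0.05, and DESeq2 and limma called 0 as well. Over all genes, 11.9% rose and 1.65% fell. Hif1a was at 62.2 to 601 CPM in UN (median 144), with a log2 fold change of 0.89 ± 0.39 (SE; edgeR adjusted p = 0.13). Without UN 6 it rose, with a log2 fold change of 1.01 (adjusted p = 0.091).

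Slc2a1 in UN was at 7.91 to 102 CPM (median 45.6), a range that took in all U libraries, with a log2 fold change of 0.89 ± 0.60 (SE; edgeR adjusted p = 0.32). Slc16a3 was at 2.35 to 7.8 CPM (median 7.13), with a log2 fold change of 0.85 ± 0.81 (SE). Car9 was at 0.428 to 4.14 CPM (median 0.898), with a log2 fold change of 0.90 ± 1.12 (SE). The SEs of Slc16a3 and Car9 nearly equalled or exceeded their changes.

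Egln3 was at 17.9 to 35.5 CPM in UN (log2 fold change 0.41 ± 0.57, SE), Pgk1 at 145 to 286 CPM (0.16 ± 0.37) and Pfkp at 27.4 to 145 CPM (-0.05 ± 0.37). Eno1 was at 89.8 to 614 CPM (-0.22 ± 0.38) and Ldha at 606 to 3111 CPM (-0.09 ± 0.38). Hk2 reached 257 CPM in UN 6, the shallow library of low RNA integrity, and was at 14.4 to 80.5 CPM in the other UN libraries. Its log2 fold change was 0.42 ± 0.59 with UN 6 and -0.60 without it.

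The third comparison, UT against UN, set the cancerous ureter beside the opposite one. Of the 10 genes, 4 rose: Car9, Slc16a3, Slc2a1 and Egln3. Over all 15615 genes, 2.80% rose and 7.97% fell. Cell markers that fell included Hba-a1 of erythroid cells (log2 fold change -2.39), Myh11 of smooth muscle (-2.39) and Adipoq of adipocytes (-2.13). Those that rose included Umod of the kidney tubule (5.96) and the proliferation gene Mki67 (1.45). The part of these shifts was not tested. Of the 4 genes, the log2 fold changes were 3.89 ± 1.07 for Car9 (SE, edgeR adjusted p = 0.039) and 3.08 ± 0.77 for Slc16a3 (adjusted p = 0.035). They were 1.97 ± 0.56 for Slc2a1 (adjusted p = 0.041) and 1.80 ± 0.53 for Egln3 (adjusted p = 0.045). Hif1a was at 0.93 ± 0.35 (adjusted p = 0.086), under 2-fold, and Hk2 at -0.99 ± 0.52 (adjusted p = 0.20). Without UT 10 the value of Car9 was 1.80 and its call was kept. Without UN 6 the value of Hk2 was 0.03. Hif1a also passed when UT 1, UT 4, UT 8, UN 3 or UN 7 was left out, with 1.35 without UN 7.

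These 4 calls were lost in several other fits. With RNA integrity as a covariate, in the fit with U, 0 of the 10 genes and 0 of all genes rose by edgeR, and 1 of the 10 had an unadjusted p under 0.05. When UT and UN libraries alone were fitted with a block for each mouse, 0 of the 10 genes and 0 of all genes rose by edgeR, and 1 of the 10 had an unadjusted p under 0.05. The blocked log2 fold changes were 1.60 for Slc16a3, 1.52 for Car9, 1.23 for Egln3 and 1.19 for Slc2a1, each with an adjusted p of 0.79. The same UT and UN libraries without a block also gave 0 of the 10 by edgeR, with 6 at an unadjusted p under 0.05. The cause of the loss was not tested. UT 10, the library with the most Car9, has no UN library of its own mouse and is outside the block.

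Within the 6 mice that gave both ureters, Slc16a3 was higher in UT in 6 of 6, by a mean of 1.46 on the log2(CPM + 4) scale (SD 1.67). The differences ran from 0.07 to 4.05. UN 2 held only 32.1 CPM of urothelial markers and UT 4 carried the kidney tubule markers, so the pairs of mice 2 and 4 also differed in make-up. The part of this in the differences was not tested. Pgk1, Ldha and Car9 were higher in 5 of 6 mice, mouse 3 being the exception for all 3 genes. Slc2a1 was higher in 4 of 6, with mice 1 and 7 lower, and its differences ran from -1.04 to 4.18. Hif1a was lower in the UT of the same mice 1 and 7. Egln3 was higher in 4 of 6 mice and Hk2 in 2 of 6.

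**Figure D2:**
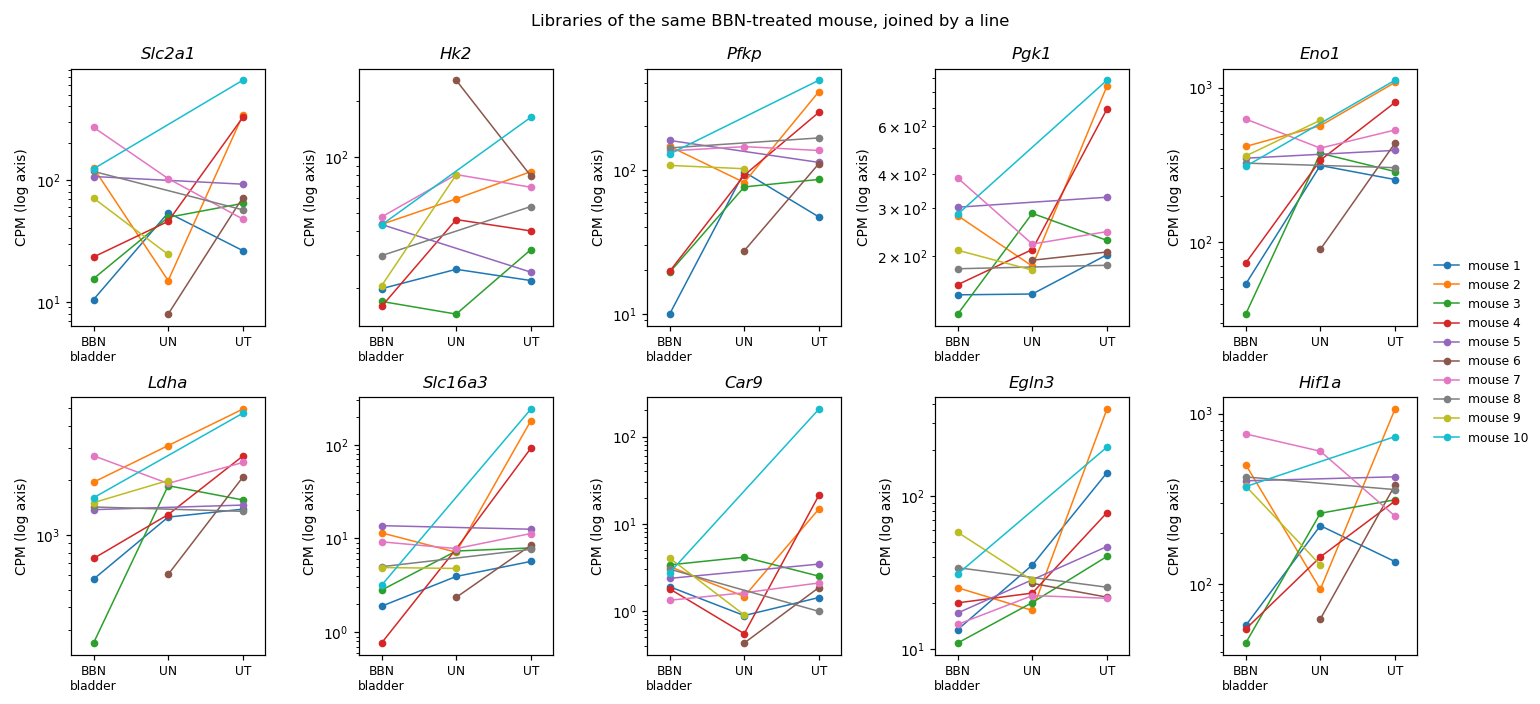
Levels of the 10 genes as CPM on a log axis in the BBN bladder, UN and UT of each BBN-treated mouse, 1 color per mouse, with libraries of a mouse joined by a line that passes over UN where the mouse has no UN library; both UT libraries of mouse 5 are drawn as their geometric mean. For Slc16a3 the line rises from UN to UT in 6 of 6 mice, most steeply in mice 2 and 4, while the lines of Slc2a1 and Hif1a fall in mice 1 and 7. UN 2 held few urothelial markers (32.1 CPM) and UT 4 carried kidney tubule markers.

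The fourth comparison asked what BBN changed in the bladder. Of the 10 genes, 2 rose, the enzymes Hk2 and Pgk1, and 0 fell. Over all 17984 genes tested, 7.08% rose and 5.47% fell. Of 10 urothelial markers, 5 fell, the uroplakins Upk1a, Upk1b, Upk2, Upk3a and Upk3b, and their list summed to 4593 to 10043 CPM in the BBN bladder against 20609 to 21494 CPM. Of 10 proliferation genes, 8 rose, with sums of 156 to 773 CPM against 85.0 to 102 CPM. Smooth muscle markers summed to 1014 to 7438 CPM in the BBN bladder against 9270 to 11134 CPM. Skeletal muscle markers summed to 18.5 to 157 CPM against 224 to 273 CPM, and neutrophil markers to 12.1 to 195 CPM against 6.80 to 8.78 CPM. The part of these shifts in the bladder results was not tested. The median log2 fold change was 0.73 over the 10 genes and 0.23 over all genes.

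Hk2 was at 6.41, 7.33 and 10.6 CPM in the 3 untreated bladders and at 15.9 to 47.8 CPM in the 9 BBN bladders (median 29.6). The groups did not overlap, and the bladder of mouse 6 held 11.2 CPM. The log2 fold change was 2.17 ± 0.33 (SE; edgeR adjusted p = 0.0011). Pgk1 was at 123, 113 and 112 CPM in the untreated bladders and at 122 to 386 CPM in the BBN bladders (median 210), with a small overlap. Its log2 fold change was 1.24 ± 0.34 (SE; edgeR adjusted p = 0.035), and leaving out any 1 of the 3 untreated bladders raised the adjusted p to 0.19 to 0.21.

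Slc2a1 was at 46.0, 58.6 and 57.8 CPM in the untreated bladders and at 10.4 to 269 CPM in the BBN bladders, and Hif1a at 191, 215 and 219 CPM against 45.0 to 758 CPM. The 3 shallow bladders, of mice 1, 3 and 4, which also had low RNA integrity, were the lowest for both genes (10.4 to 23.3 CPM for Slc2a1, 45.0 to 56.98 CPM for Hif1a). With them, the log2 fold changes were 0.91 ± 0.65 for Slc2a1 and 0.74 ± 0.63 for Hif1a (SE; edgeR adjusted p = 0.36 and 0.45). Without them, 5 of the 10 genes rose: Hk2, Pgk1, Ldha (log2 fold change 1.37), Slc2a1 (1.32) and Hif1a (1.17). In that fit 12.1% of all genes rose and 10.3% fell.

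Ldha was at 693, 671 and 676 CPM in the untreated bladders and at 254 to 2733 CPM in the BBN bladders, with a log2 fold change of 1.16 ± 0.51 (SE; edgeR adjusted p = 0.16). Eno1 was at 198 to 239 CPM against 34.3 to 625.1 CPM. Pfkp was at 156 to 172 CPM against 9.94 to 160 CPM, with a log2 fold change of -0.72 ± 0.52 (SE; edgeR adjusted p = 0.37).

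Slc16a3, Car9 and Egln3, which rose in the cancerous ureter, did not pass in the bladder. Slc16a3 was at 7.67, 7.33 and 8.0 CPM in the untreated bladders and 0.767 to 13.7 CPM in the BBN bladders (log2 fold change -0.27 ± 0.53, SE). Car9 was at 2.16, 2.0 and 1.81 CPM against 1.32 to 4.04 CPM (0.72 ± 0.53), and Egln3 at 26.8, 26.6 and 26.4 CPM against 11 to 58.1 CPM (0.15 ± 0.38). All 3 sets of BBN bladders spanned the untreated values.

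**Figure D3:**
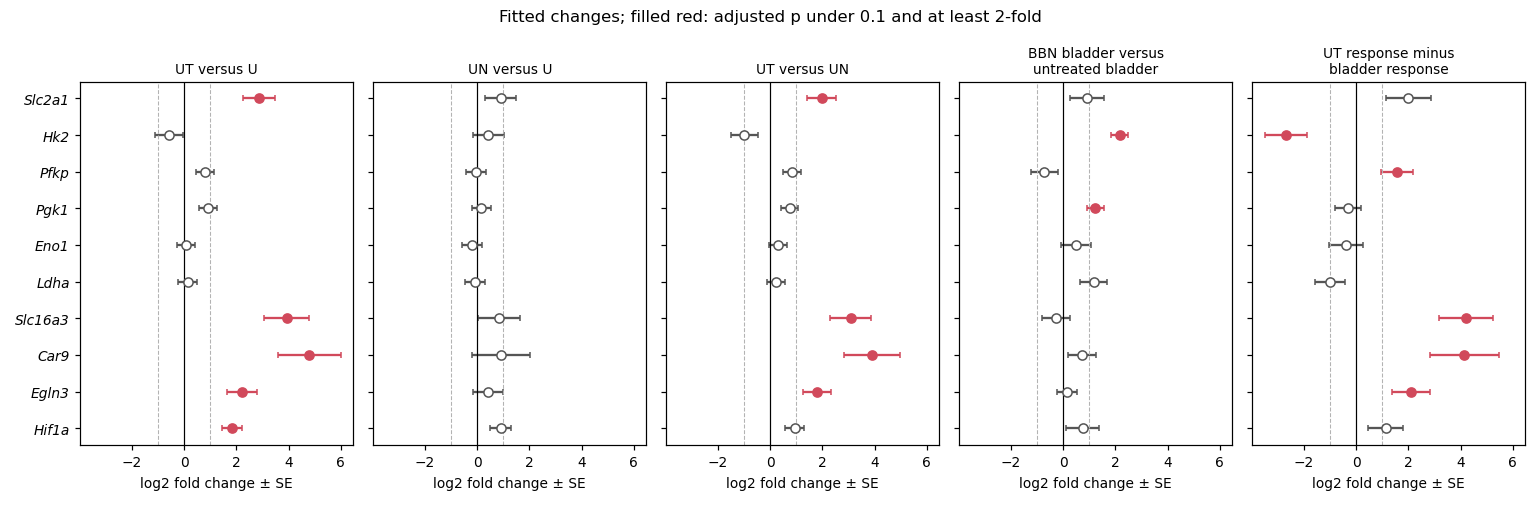
Fitted log2 fold changes of the 10 genes with their SE, 1 panel per comparison; filled red points passed the adjusted p of 0.1 and the 2-fold threshold, and dashed lines mark 2-fold. Slc16a3 (3.92) and Car9 (4.79) have the largest changes in UT against U. In the bladder panel Slc16a3 is at -0.27 and Car9 at 0.72, both open, and Hk2 (2.17) and Pgk1 (1.24) are the filled points.

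The difference between the ureter's and the bladder's response to BBN was tested directly, as UT minus U less BBN bladder minus untreated bladder. Of the 10 genes, 4 responded more in the ureter and 1 less, against 6.01% and 10.3% of all 18897 genes tested. The differences of log2 fold changes were 4.22 ± 1.03 for Slc16a3 (SE; edgeR adjusted p = 0.017), 4.15 ± 1.33 for Car9 (adjusted p = 0.055), 2.09 ± 0.73 for Egln3 (adjusted p = 0.071) and 1.55 ± 0.61 for Pfkp (adjusted p = 0.097). For Hk2 it was -2.70 ± 0.81 (adjusted p = 0.044). Slc2a1, with 2.0 ± 0.86 (adjusted p = 0.12), did not pass.

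Of these, the call of Slc16a3 was kept when any 1 library was left out, with differences from 3.66 to 4.5. It was the only call of the 5 that was kept without any 1 of the 3 untreated bladders. The difference of Car9 was 1.98 without UT 10 and that of Egln3 1.59 without UT 2, and neither passed. Without the shallow bladders of mice 1, 3 and 4, 2 genes responded more and 1 less, against 5.75% and 3.68% of all genes, and the difference of Pfkp dropped to 1.12. Under a fit that treats mice as random effects, Hk2 alone of the 10 genes passed, and the difference of Slc16a3 was 2.93 (adjusted p = 0.13). The share of all genes in that fit is not given here. Taken for UN in place of UT, 0 of the 10 genes differed from the bladder by edgeR (1.46% of all genes more, 0.651% less), with 3 at an unadjusted p under 0.05; DESeq2 called 0 and limma called 1, Hk2. The value for Hk2 was -1.82 ± 0.81 (adjusted p = 0.32), and without UN 6 it passed at -2.76.

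The untreated tissues already differed. Against the untreated bladder, U had more Hk2 and Ldha, with log2 fold changes of 3.48 ± 0.76 (SE; edgeR adjusted p = 0.0020) and 1.76 ± 0.52 (adjusted p = 0.020), while 7.47% of all genes were higher and 8.20% lower. The call of Ldha was lost without any 1 of the 3 untreated bladders (adjusted p = 0.11). For all 10 genes the 6 U libraries did not overlap with the 3 untreated bladders. Hk2, Pgk1, Eno1 and Ldha were above them, and Slc2a1, Pfkp, Slc16a3, Car9, Egln3 and Hif1a below them. Such separation was common: of 18897 genes, U lay wholly above for 13.4% and wholly below for 39.2%. Hk2, for example, was at 52.4 to 101 CPM in U against 6.41 to 10.6 CPM, and Slc2a1 at 17.0 to 21.2 CPM against 46.0 to 58.6 CPM.

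In a fit of these 2 groups alone with the mouse as a block, 3 of the 10 genes were higher in U, Eno1 being added at 1.37, and 2 were lower, Slc2a1 at -1.10 and Car9 at -1.05. The blocked fit called 15.6% of all genes higher and 14.4% lower. The untreated ureter carried 25186 to 32870 CPM of adipocyte markers, against 425 to 1382 CPM in the untreated bladder, and 1566 to 3101 CPM of urothelial markers against 20609 to 21494 CPM. Their part in the difference was not tested.

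The last comparisons set the ureter of BBN-treated mice beside their bladder. UT had more Slc16a3, Car9 and Egln3 than the BBN bladder, with log2 fold changes of 3.27 ± 0.63 (SE; edgeR adjusted p = 0.0013), 3.09 ± 0.78 (adjusted p = 0.0045) and 1.91 ± 0.43 (adjusted p = 0.0025), while 5.64% of all genes were higher and 21.6% lower. Without the bladders of mice 1, 3 and 4 these shares were 6.97% and 2.92%, and 3 of the 10 genes were higher. Without UT 10 the value of Car9 was 0.89 and did not pass. With the mouse as a block, 0 of the 10 genes passed by edgeR, against 1.81% of all genes higher and 2.52% lower, and 3 had an unadjusted p under 0.05. Over the 8 mice with both tissues, Slc16a3, Egln3, Hk2, Pfkp and Pgk1 were higher in UT in 7. These 8 include mice 1, 3 and 4, whose shallow bladders held 0.767 to 2.81 CPM of Slc16a3 and 9.94 to 19.7 CPM of Pfkp. UN had more Hk2 than the BBN bladder (log2 fold change 1.66 ± 0.45, SE; edgeR adjusted p = 0.010), while 8.44% of all genes were higher and 10.3% lower. This was 0.73 without UN 6 and 0.43 with the mouse as a block, and neither passed.

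Several members have a partner of the same function, and the share of each gene in its pair is given here. Levels of different genes are compared as CPM per kilobase of exon. Slc2a4, the insulin-responsive glucose transporter of fat and muscle, was at a mean of 94.2 CPM per kb in U against 5.52 for Slc2a1. In UT the means were 18.84 for Slc2a4 and 50.4 for Slc2a1. Slc2a1 made up 4.16% to 7.06% of the pair in U, 21.7% to 99.0% in UT and 52.5% to 54.4% in the untreated bladder. Slc2a4 fell in UT against U by a log2 fold change of -2.68 ± 0.66 (SE; edgeR adjusted p = 0.0024), beside the fall of the adipocyte markers.

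For hexokinase, Hk2 made up 64.7% to 76.7% of Hk1 plus Hk2 per kb in U and 19.0% to 54.4% in UT, without overlap. In the bladder it went from 6.68% to 10.5% in untreated to 18.1% to 62.5% in BBN-treated libraries. The shallow bladders of mice 1, 3 and 4 held 56.5% to 62.5% and the other BBN bladders 18.1% to 26.9%. Hk1, the housekeeping isozyme, rose in UT against U with a log2 fold change of 1.51 ± 0.42 (SE; edgeR adjusted p = 0.0051). The share of Hk2 was thus lower in UT than in U and higher in the BBN bladder than in the untreated one.

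For lactate dehydrogenase, the bladder stood out, a pair picked after its values were seen. Ldha made up 22.5% to 23.3% of Ldha plus Ldhb per kb in the untreated bladder and 86.3% to 97.5% in the BBN bladder. Ldhb, the heart-type subunit, fell there from 1085 to 1106 CPM to 14.9 to 104 CPM, with a log2 fold change of -4.10 ± 0.36 (SE; edgeR adjusted p = 3.1e-05), while Ldha itself did not pass. The uroplakins, markers of the urothelial surface, fell in the same libraries, Upk1a by a log2 fold change of -6.27 and Upk2 of -5.21. In the ureter, Ldha made up 62.2% to 71.98% in U and 48.6% to 99.3% in UT. The lowest UT share was that of UT 4, the library with kidney tubule markers, which held 1366 CPM of Ldhb.

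For lactate export, Slc16a3 made up 4.61% to 11.4% of Slc16a1 plus Slc16a3 per kb in U and 10.3% to 76.6% in UT. In the untreated bladder the share was 13.4% to 25.1% and in the BBN bladder 5.66% to 22.6%. For the HIF subunits, Hif1a made up 25.7% to 45.0% of Hif1a plus Epas1 in U, 69.04% to 97.0% in UT and 76.1% to 78.4% in the untreated bladder. Epas1, which encodes HIF-2α, fell in UT against U with a log2 fold change of -1.68 ± 0.34 (SE; edgeR adjusted p = 0.00045).

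**Figure D4:**
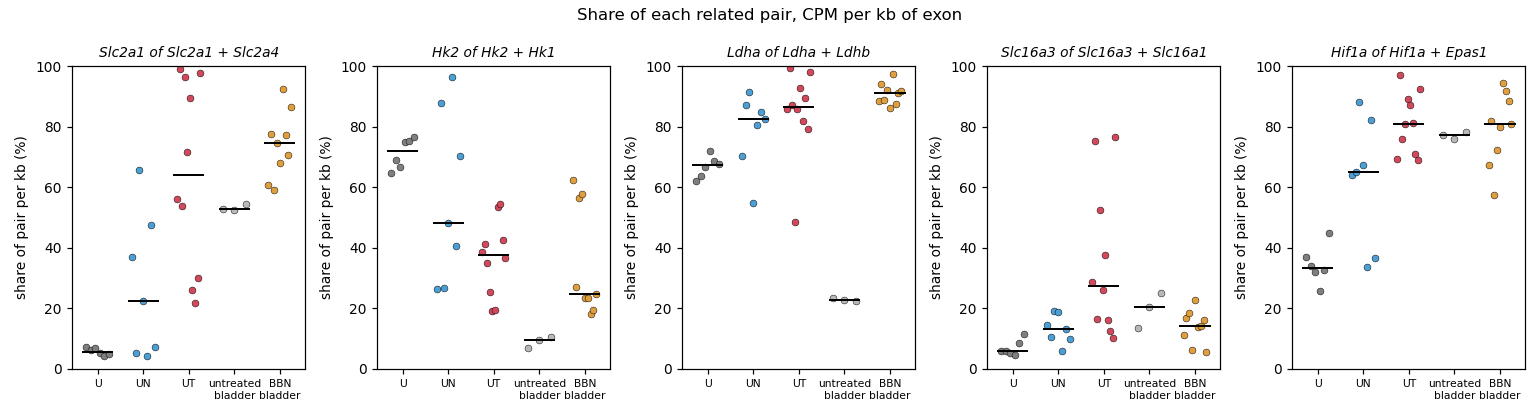
Share of the first gene in 5 pairs of related genes, in percent of the pair's CPM per kb of exon, for each fitted library; bars are group medians. The Slc2a1 share is 4.16% to 7.06% in U and 21.7% to 99.0% in UT, and the Ldha share is 22.5% to 23.3% in the untreated bladder and 86.3% to 97.5% in the BBN bladder.

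The rest of the pathway was read from lists of genes by role, whose counts in UT against U stand beside 18.6% of all genes higher and 14.4% lower. Among 12 glucose transporters tested in UT against U, 3 rose (Slc2a1, Slc2a6 and Slc2a9) and 4 fell, with Slc2a13 at -1.94 beside Slc2a4. Among 21 glycolytic enzymes, 3 rose and 2 fell, with a median log2 fold change of 0.25 against 0.08 for all genes. Both counts lie below the shares of all genes. Among the enzymes that rose were Hk1 and Aldoc, the brain-type aldolase (3.10 ± 0.54, SE; edgeR adjusted p = 0.00012). Pfkm and Aldoa were the enzymes that fell.

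Of 14 genes of lactate and pyruvate handling, 8 fell and 2 rose (Slc16a3 and Ldhd), with a median of -1.63, where 14.4% of all genes fell and 18.6% rose. Both subunits of the mitochondrial pyruvate carrier fell, Mpc1 by a log2 fold change of -2.07 ± 0.51 and Mpc2 of -1.95 ± 0.46 (SE; edgeR adjusted p = 0.0024 and 0.0017). Pdha1, Pdhb, Pdhx, Dlat and Dld, the subunits of the pyruvate dehydrogenase complex, were the others beside the carrier Slc16a7. Pdha1 was at -1.97 ± 0.29. Of the regulators of glycolysis and pyruvate dehydrogenase, 5 of 11 fell, with Pfkfb1 at -3.27, Pdk4 at -2.48 and Pfkfb3 at -2.21, and Pdk3 rose.

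Where 14.4% of all genes fell, 2 of 7 genes of gluconeogenesis tested fell, Pck1 at -3.48 and Pcx at -3.29. Of 7 genes of the pentose phosphate pathway, 3 fell, Tkt at -1.55, Taldo1 at -1.18 and Rpe at -1.03. The median log2 fold change was 0.20 over the gluconeogenesis list and -0.74 over the pentose phosphate list. The adipocyte markers, of which 9 of 9 fell with a median of -3.15, moved with these falls, and their part in them was not tested.

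Of 34 hypoxia targets outside glycolysis, 15 rose and 5 fell, where 18.6% of all genes rose and 14.4% fell. Their median log2 fold change was 0.45, against 0.08 over all genes. Besides Car9, those that rose included Car12, another membrane carbonic anhydrase (4.64 ± 1.04, SE; edgeR adjusted p = 0.0011), and Ankrd37 (3.29 ± 0.74; adjusted p = 0.0011). The 5 that fell were Angptl4 (-2.24), Gys1 (-1.79), Plin2 (-1.42), P4ha1 (-1.14) and Bnip3 (-1.06). Vegfa, Bnip3l and Tfrc, which are also HIF targets, had log2 fold changes of -0.44, -0.21 and 0.02 and did not pass. Of 10 HIF subunits and oxygen sensing genes, Hif1a and Egln3 rose and Epas1 fell, while Egln1 and Egln2, the sister hydroxylases, were at -0.09 and -0.29. Of 9 genes of acid and bicarbonate handling, 3 rose, among them Car2 at 1.20 (edgeR adjusted p = 0.090), and 1 fell, Car4 at -1.47. Car2 reached 435 CPM in UT 4, the library with kidney tubule markers, and had a median of 46.2 CPM over UT against 27.8 CPM over U.

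In the bladder, where 7.08% of all genes rose and 5.47% fell against 18.6% and 14.4% in UT against U, the same lists were counted, and the difference between the organs was not tested for them. Of 34 hypoxia targets, 2 rose (Edn1 at 2.47 and Ddit4 at 1.26) and 4 fell. Of 21 glycolytic enzymes, 2 rose, Hk2 and Pgk1, and 2 fell, Pfkm at -1.91 and Eno2 at -1.17. Of 14 genes of lactate and pyruvate handling, 1 rose (Ldhd) and 2 fell (Ldhb and Slc16a7).

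**Figure D5:**
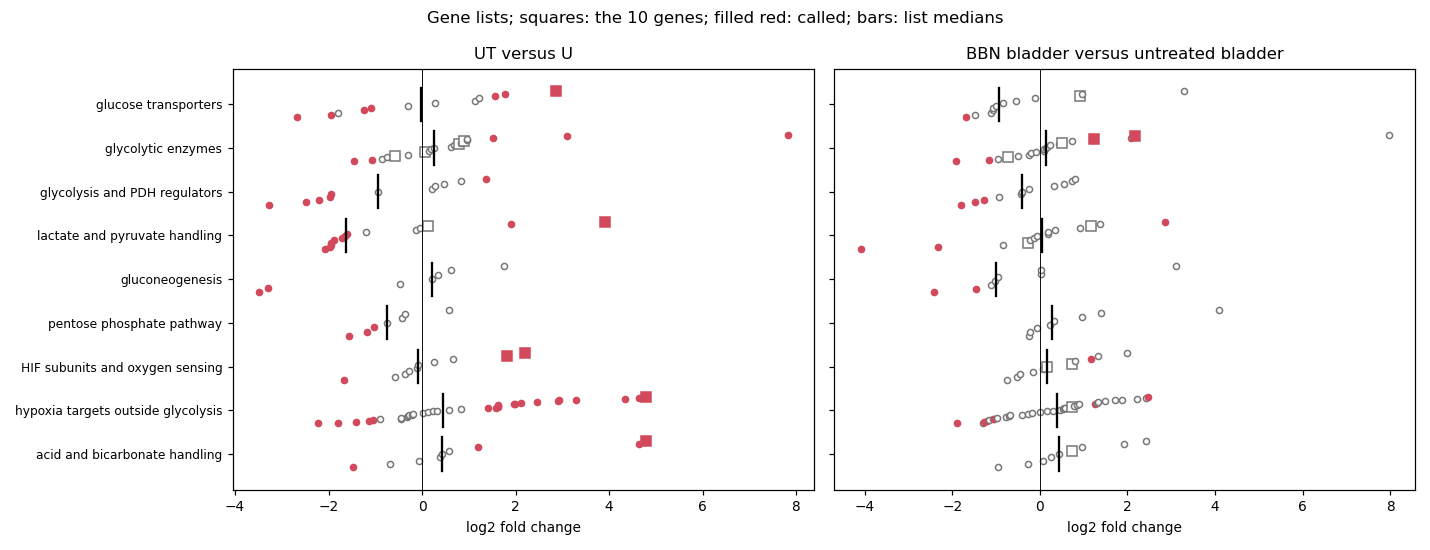
Log2 fold changes of the genes of 9 pathway lists in UT against U and in the BBN bladder against the untreated bladder; squares are the 10 genes, filled red symbols passed both thresholds and black bars are list medians. The lactate and pyruvate list has a median of -1.63 in UT against U with Slc16a3 (3.92) far to the right, and 15 of 34 hypoxia targets are filled on the right there, where 18.6% of all genes rose, and 2 of 34 in the bladder, where 7.08% of all genes rose.

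Over the 35 fitted libraries, the genes most like the mean of the 10 members (mean of z-scores of log2(CPM + 4)) were Ero1l (Pearson r = 0.89), Bhlhe40 (0.89), Pgam1 (0.88), Jmjd6 (0.87) and Afap1l1 (0.87). Ero1l and Bhlhe40 are hypoxia targets of the lists above, and Pgam1 is the glycolytic enzyme between Pgk1 and Eno1. Taken singly, the closest gene was Slc39a6 for Slc2a1 (0.94), Tenm4 for Hk2 (0.81), Map2k1 for Pfkp (0.94), Bhlhe40 for Pgk1 (0.84) and Adm2 for Slc16a3 (0.91). It was D430036J16Rik for Car9 (0.92), B3gnt7 for Egln3 (0.82), Myc for Hif1a (0.96) and Eno1b for Ldha (0.93) as for Eno1. These libraries share tissues, mice and differences in depth, and the values are descriptions.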

How the data were processed

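Estimated counts for each gene symbol in 37 libraries were made and deposited by the authors as 1 table. Of its nonzero values 21.1% were fractional, and all were rounded to whole numbers here. The RNA had been made into libraries with SMARTerHT and Nextera XT kits. The submitters' processing notes name TopHat2 2.1.1 and Cuffdiff 2.2.1 and the builds GRCm38 and mm10; whether strand was used in counting is not given in the sources used here. Replicates were not pooled. Every column was matched to 1 sample. RNA integrity numbers, used only as a covariate and to rank libraries, came from the supplementary material of the study's paper.

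Tests used edgeR 4.0.16 (R 4.3.3) with TMM scaling, filterByExpr and quasi-likelihood fits, checked first on simulated data. UT, UN and U were fitted together, both bladder groups together, and comparisons across organs in a fit of all 5 groups. DESeq2 1.42.0, limma 3.58.1, other scalings and filters, covariates, each library left out, and the mouse as a block were the alternatives. The labels give UT, UN and bladder libraries of a mouse a shared number, which pairs them by animal. Deviations from the group means correlated within mice at a median of -0.04 for UT and UN and 0.13 for UT and bladder. The within-mouse median was -0.14 for UN and bladder and -0.06 for U and untreated bladder. Between libraries of different mice the medians were -0.009, -0.026, 0.16 and 0.014 in the same order. Only for UT and bladder was the within-mouse median higher. No 2 libraries agreed within sampling noise.

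CPM values were scaled to each library's total without TMM factors. Exon lengths and positions came from GENCODE vM21 (GRCm38). The precision of a level is limited by the library totals. Genes named from a list are its 3, members aside, with the largest changes among those that passed in UT against U; others were named after their values were seen, and some genes the rule names are not reported here. The members and lists were chosen with earlier results of these data known. Ly6g and Trbc1 of the marker lists were not analysed here. Tables and figures were made in Python 3.11.15.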

Additional observations from a re-analysis of the deposited data

Results flagged for a closer look

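Some libraries lay far from the others of their group (Dixon's criterion at 95%, on log2(CPM + 4) or on the total, over 44 sets of libraries, of which chance flags about 1 in 20). Car9 in UT 10 was the highest of UT at 7.72 (207 CPM), and Car9 in UN 3 the highest of UN at 3.03 (4.14 CPM). Pfkp was lowest in U 3L at 5.98 (59.2 CPM) and in UN 6 at 4.97 (27.4 CPM), and Eno1 was lowest in UN 6 at 6.55 (89.8 CPM). UN 6 also had the lowest total of its group, 4674970 counts.

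The response to BBN differed between the cancerous ureter and the bladder, by the test of the difference, for Slc16a3 (4.22), Car9 (4.15), Egln3 (2.09), Pfkp (1.55) and Hk2 (-2.70), as differences of log2 fold changes. Of these, Slc16a3 alone passed whichever 1 library was left out. Car9 did not pass without UT 10 (1.98) and Egln3 without UT 2 (1.59), and without the bladders of mice 1, 3 and 4 neither Egln3 (2.08) nor Pfkp (1.12) passed. With mouse as a random effect 0 of the 10 genes responded more and Hk2 alone of them responded less. The share of all genes in that fit is not given here.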

How the results depend on the processing

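In UT against U, 5 of the 10 genes rose under the alternatives run, except for 4 with RNA integrity as a covariate, where Car9 was lost, and 6 without UT 8, where Pgk1 was added. In UT against UN the 4 calls became 2 with limma-trend and 0 with UT and UN alone, with the replicate block by mouse, with mouse as a random effect, with one value per mouse and with RNA integrity as a covariate; leaving out 1 library kept 4 to 5 higher and 0 to 1 lower (Hk2, without UN 3). In UN against U, leaving out 1 library gave 0 to 1 higher. In the bladder, 2 became 5 without the bladders of mice 1, 3 and 4, and 1 to 3 when 1 library was left out. In U against the untreated bladder the range was 1 to 3 higher, and the block gave 2 lower. UT against the BBN bladder gave 2 to 6 higher with 1 library left out and 0 under the block. UN against the BBN bladder gave 0 higher with limma-trend, mouse as a random effect and the block, 0 to 1 with 1 library left out, and 1 lower, Slc2a1, with DESeq2, without the bladders of mice 1, 3 and 4 and with a fit without UT (0 to 1 with 1 library left out). The ureter response less that of the bladder gave 1 higher with limma-trend, 2 without the bladders of mice 1, 3 and 4 and 0 with mouse as a random effect, with 1 to 5 higher and 0 to 1 lower when 1 library was left out; for UN, limma-trend and mouse as a random effect gave 1 lower, and 1 library left out 0 to 1. The cause was not tested. Over all genes, the 438 that rose and 1245 that fell in UT against UN became 1 and 0 with UT and UN alone, 0 and 0 under the block or with RNA integrity, 4 and 0 with one value per mouse, 279 and 638 with mouse as a random effect and 206 and 658 with all 11 UT libraries. In UN against U, 1851 higher became 861 with mouse as a random effect and 147 with one value per mouse, and in the bladder 1274 higher became 4430 with DESeq2. In UT against the BBN bladder, 1065 higher and 4074 lower became 271 and 376 under the block and 1176 and 492 without the bladders of mice 1, 3 and 4.

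Signs turned only in values that had not passed. In UT against U, Eno1 was -0.11 with limma-trend, -0.11 with mouse as a random effect, -0.49 with RNA integrity, -0.056 with the library code range and -0.11 to 0.19 with 1 library left out; Ldha was -0.043, -0.042 and -0.29 under the first 3 and -0.075 to 0.24 with 1 left out. In UN against U, Hk2 was -0.37, -0.57 and -0.13 under the same 3 and -0.60 to 0.61 with 1 left out, Pfkp 0.0045 with all 11 UT libraries and -0.14 to 0.065, and Ldha -0.42 to 0.014. In UT against UN, Hk2 was -1.25 to 0.030 with 1 left out, and with RNA integrity Eno1 was -0.31 and Ldha -0.29. Without the bladders of mice 1, 3 and 4, Slc16a3 was 0.022 in the bladder and Hif1a -0.012 in UT against the BBN bladder.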
